A study of Gallus gallus with 12 samples.

Results

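The 10 genes described here were taken by symbol from the 17485 protein coding genes of the deposited count table. They are the laminin alpha chains LAMA1, LAMA2, LAMA4 and LAMA5, the beta chain LAMB1, the gamma chain LAMC1, the nidogens NID1 and NID2, perlecan (HSPG2) and EGFLAM, which encodes pikachurin, a protein with domains like those of agrin and perlecan. Collagens were not among them. All 10 passed the filter on low counts and were tested. Together they held between 0.355% and 0.427% of the counts outside rRNA genes in the 11 libraries used.

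Basement membranes are thin sheets of extracellular matrix that lie under epithelia and around endothelial, muscle and nerve cells. Laminins form their first network: each laminin is a trimer of an alpha, a beta and a gamma chain, and the end of the alpha chain binds integrins and dystroglycan on the cell surface. Nidogens bind the laminin gamma chain and type IV collagen and so link the laminin network to the collagen network, and perlecan, a large proteoglycan that carries heparan sulfate, binds to both. The Müllerian duct, the precursor of the oviduct, starts as an invagination of the coelomic epithelium at the front of the mesonephric kidney and grows backwards beside the Wolffian duct.

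RNA was sequenced from untreated Hy-Line Brown chicken embryos, not separated by sex, in 4 tissues with 3 libraries each, every library being made from a pool of several embryos. E4.5-Ant was the anterior part of the urogenital system at embryonic day 4.5, with anterior mesonephros, mesentery and the epithelium from which the duct starts, and E4.5-Post, the control, was the posterior part of the same embryos, with mesonephros and mesentery and no duct. E5.5 duct and E6.5 duct were the whole Müllerian duct dissected off the mesonephros at days 5.5 and 6.5, with its surface epithelium, mesenchyme and inner epithelium. The comparisons with E4.5-Post ask how duct tissue differs from kidney without duct, and those between stages ask how the duct changes as it forms and elongates.

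The libraries held between 24235353 and 31373783 counts on genes. E4.5-Ant library 2 was left out of means and tests because rRNA genes held 42.12% of its counts, against 0.199% to 1.95% in the others, so n = 2 for E4.5-Ant and n = 3 for each other tissue, and its values are given apart. Levels are in CPM, a gene's count scaled to the library's total on genes other than rRNA genes, given as mean ± SD. They are not scaled by gene length, so levels are compared between tissues and not between genes. E5.5 duct library 2 stood apart from the other E5.5 duct libraries: chi-square values of its counts against theirs, per degree of freedom, were 30.9 and 37.8, against 9.62 between the other pair. The columns carry the tissue and a library number but no sample name. For 1 sample whose title gives E5.5 duct, the label for cell type gives posterior kidney instead. Which of the 3 E5.5 columns that is was not known, and all 3 were used as E5.5 duct. Nephron and podocyte markers summed to 1815 to 2013 CPM in these 3 columns, against 2981 to 3513 in E4.5-Post. Wolffian duct markers summed to 1433 to 1832 CPM, against 462 to 536 in E4.5-Post. The Müllerian duct marker sums, given below, overlapped between these tissues. Whether the title or the label is right was not tested. Of the 11 Müllerian duct markers examined, 6 were higher and 1 lower in E5.5 duct than E4.5-Post, and 8 were higher and 1 lower in the E6.5 duct. In E4.5-Ant 0 were higher and 6 lower than in E4.5-Post. By the limits set out below, 14.3% of all tested genes were higher and 6.26% lower in E5.5 duct than E4.5-Post. The shares were 16.5% and 8.78% in the E6.5 duct, and 7.70% and 3.05% in E4.5-Ant. The 11 summed to 426 and 499.5 CPM in E4.5-Ant, 733 to 775 in E4.5-Post, 711 to 781 in the E5.5 duct and 998 to 1084 in the E6.5 duct. The study picked out FOXE1 and OSR1, both among the 11, from these same counts for their rise in the duct. Their higher levels are therefore no separate check of the tissue. FOXE1, a forkhead factor of the duct, was at 8.43, 10.7, 49.9 and 182 CPM on average in E4.5-Ant, E4.5-Post, E5.5 duct and E6.5 duct. LHX1 and PAX2, also among the 11, were highest in E4.5-Post. In the same order LHX1 averaged 80.2, 165.7, 103.2 and 92.9 CPM, and PAX2 218.2, 363.3, 246.2 and 320.3.

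EGFLAM and LAMA4 were above E4.5-Post in both ducts, by 1.75-fold to 3.47-fold, and the other 8 genes stayed within 1.5-fold of E4.5-Post in every tissue, the chains LAMA1, LAMA5 and LAMC1 being somewhat lower in the ducts. A gene was taken as differentially expressed (DEG) with an edgeR false discovery rate (FDR) of at most 0.05 and a change of at least 1.5-fold, which is 0.58 on the log2 scale. For E5.5 duct over E4.5-Post, 2 of 10 were DEGs on the higher side and 0 on the lower side, where 14.3% and 6.26% of the 16603 tested genes were. For E6.5 duct over E4.5-Post the counts were also 2 and 0 of 10, against 16.5% and 8.78% of all tested genes. These shares of members are close to the background, so that the count as such does not set the genes apart. The median log2 fold change (log2FC) of the 10 was -0.05 in the E5.5 duct and -0.06 in the E6.5 duct, against 0.013 and 0.014 over all tested genes.

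In E4.5-Ant against E4.5-Post, 0 of 10 were DEGs by edgeR, by voom with limma and by DESeq2, where 7.70% of tested genes were DEGs on the higher and 3.05% on the lower side by edgeR. Of the 10, 8 had an unadjusted edgeR p under 0.05. For counts at this unadjusted limit, here and below, the share of all tested genes was not computed. At the FDR limit alone, E4.5-Ant had 4 higher and 2 lower, against 14.2% and 14.8% of tested genes. Set against E4.5-Ant, E5.5 duct had 2 of 10 as DEGs on the higher and 0 on the lower side, where 7.80% and 5.22% of tested genes were, and E6.5 duct had 1 and 0, where 11.5% and 8.26% were. Between the ducts 0 of 10 were DEGs by each of the 3 tests, where 4.11% of tested genes were higher and 3.45% lower in the E6.5 duct by edgeR. Of the 10, 5 had an unadjusted edgeR p under 0.05, and at the FDR limit alone 3 were higher and 2 lower, against 14.5% and 13.5%. The comparisons with E4.5-Post share its libraries, and those with E4.5-Ant share its 2 libraries, so they are not independent of each other.

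**Figure D1:**
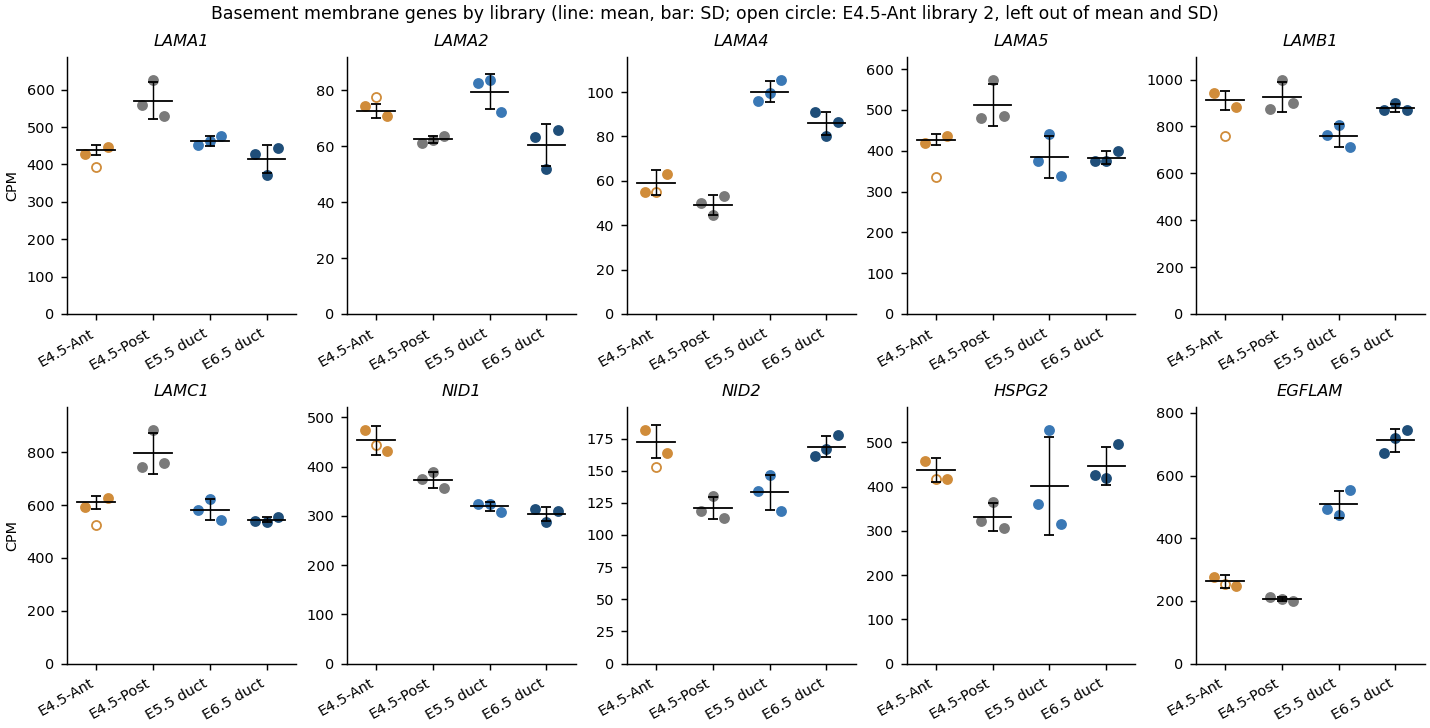
Level of each of the 10 genes in CPM (vertical axis, from 0, with its own scale for each gene) in each library of the 4 tissues. Points are libraries, lines are means, bars are SD, and the open circle is E4.5-Ant library 2, left out of both. EGFLAM and LAMA4 are the genes whose duct libraries all lie above all E4.5 libraries.

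EGFLAM had the widest range of the 10. It lies on chromosome Z from 11920707 to 11993907 on the plus strand of the GRCg6a assembly, next to LIFR. In mouse, pikachurin is a dystroglycan ligand of the retina, where it sits at photoreceptor synapses. Its level was 213, 205 and 200.4 CPM in the 3 E4.5-Post libraries, 278 and 248 in E4.5-Ant (left-out library 255), 495, 473 and 555 in the E5.5 duct and 674, 719 and 746 in the E6.5 duct. Every E6.5 duct library lay above every E5.5 duct library, and every E5.5 duct library above all E4.5 libraries. The mean was 206 ± 6.41 CPM in E4.5-Post, 263 ± 20.8 in E4.5-Ant, 508 ± 42.4 in the E5.5 duct and 713 ± 36.3 in the E6.5 duct. Against E4.5-Post, the log2FC was 1.30 ± 0.067 (SE) in the E5.5 duct (edgeR FDR 4.29e-09) and 1.80 ± 0.068 in the E6.5 duct (edgeR FDR 8.46e-11), that is 2.46-fold and 3.47-fold. These changes ranked at percentiles 95.3 and 96.8 of all tested genes. Against E4.5-Ant they were 0.97 ± 0.076 and 1.47 ± 0.077 (edgeR FDR 3.81e-07 and 4.42e-09).

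Neighbouring tissues in the order of EGFLAM levels also differed at the FDR limit, though below the fold limit. E6.5 duct was above E5.5 duct by 0.50 ± 0.065 (edgeR FDR 0.000140) and E4.5-Ant above E4.5-Post by 0.32 ± 0.073 (edgeR FDR 0.00460). The second difference rested on E4.5-Ant library 1, without which its edgeR FDR was 0.103. EGFLAM is Z-linked, male birds carry 2 Z chromosomes and females 1, and the pools were not separated by sex. The median log2FC of the 759 tested genes placed on Z was 0.08 in the E5.5 duct and 0.007 in the E6.5 duct over E4.5-Post, and the part of the sex of the embryos in the EGFLAM values was not tested.

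The 5 tested genes whose log2(CPM + 1) followed EGFLAM most closely over the 11 libraries were SERPINE2, an inhibitor of serine proteases (Pearson r = 0.995), FGF18, a fibroblast growth factor (0.994), CACNA1E, a calcium channel subunit, ADRA1D, an adrenergic receptor, and SGPL1, a sphingosine phosphate lyase (0.993 each). These values describe likeness across 4 tissues and are not a test. The mean of SERPINE2 went from 176 CPM in E4.5-Post and 192 in E4.5-Ant to 287 in the E5.5 duct and 347 in the E6.5 duct. FGF18 was low in all tissues, at 0.549, 0.841, 2.24 and 3.62 CPM in the same order.

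LAMA4 was the laminin chain among the 10 genes that was a DEG in the ducts over E4.5-Post. It lies on chromosome 3 from 65714365 to 65811034 on the plus strand, and encodes the alpha 4 chain, which in mammals is found in the walls of blood vessels and in mesenchymal and muscle tissues. Its level was 49.8, 44.5 and 53.1 CPM in the 3 E4.5-Post libraries, 55.1 and 63.0 in E4.5-Ant (left-out library 55.1), 95.9, 99.5 and 105 in the E5.5 duct and 90.9, 80.2 and 86.5 in the E6.5 duct. The duct libraries lay above all E4.5 libraries, with no overlap, and E5.5 duct was the highest tissue. The log2FC against E4.5-Post was 1.02 ± 0.072 in the E5.5 duct (edgeR FDR 5.41e-08) and 0.81 ± 0.072 in the E6.5 duct (edgeR FDR 3.16e-07), or 2.03-fold and 1.75-fold, at percentiles 92.4 and 87.4 of all tested genes.

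Against E4.5-Ant, LAMA4 rose by 0.79 ± 0.081 in E5.5 duct (edgeR FDR 4.89e-06). In E6.5 duct the difference of 0.58 ± 0.081 (edgeR FDR 5.48e-05) fell just short of the fold limit, at 1.49-fold, and passed it without E4.5-Ant library 3 or without E6.5 duct library 2. The lower level in the E6.5 duct than in E5.5 duct (-0.21 ± 0.070, edgeR FDR 0.0351) and the higher level in E4.5-Ant than E4.5-Post (0.23 ± 0.081, edgeR FDR 0.0420) were close to the FDR limit. By voom with limma the FDR of the second was 0.0532, and with all 12 libraries that of the first was 0.0645. Leaving out 1 library took each past it in 4 of 11 fits. For the first these were the fits without E5.5 duct library 2 or 3 or E6.5 duct library 2 or 3, with an FDR of up to 0.154, and for the second those without E4.5-Ant library 3, E4.5-Post library 1 or 2 or E6.5 duct library 3, with an FDR of up to 0.345.

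Because alpha 4 is known as a chain of vessel walls, the endothelial markers were set beside LAMA4. Their summed level over the 14 measured of 15 listed was 1057 to 1158 CPM in E4.5-Post, 1264 to 1415 in E4.5-Ant, 927 to 1016 in the E5.5 duct and 846 to 892 in the E6.5 duct. In E5.5 duct over E4.5-Post 1 of the 14, PECAM1, was a DEG on the higher side and 5 were DEGs on the lower side, and in the E6.5 duct 1 and 6. None of the 14 was at 0. Smooth muscle markers, of which all 8 were measured, summed to 211 to 221 CPM in E4.5-Post, 716 to 906 in E4.5-Ant, 299 to 385 in the E5.5 duct and 331 to 344 in the E6.5 duct, and 3 of 8 were DEGs on the higher side in each duct over E4.5-Post. Over all tested genes, 14.3% were DEGs on the higher and 6.26% on the lower side in E5.5 duct over E4.5-Post. The shares were 16.5% and 8.78% in the E6.5 duct. Among the smooth muscle markers, SYNPO2 averaged 25.7 CPM in E4.5-Post, 83.9 in the E5.5 duct and 131.7 in the E6.5 duct. In the same order, ACTA2 averaged 159.7, 209.6 and 157.4 CPM, and TAGLN 10.3, 10.7 and 8.97. The part of endothelial or smooth muscle cells in the LAMA4 values was not tested. In bulk tissue, more cells of a type and more RNA per cell cannot be told apart.

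Among other marker lists, the Wolffian duct sum was higher in the ducts than in the E4.5 tissues, and the red blood cell sum was lower. The 7 Wolffian duct markers, all measured and 6 of them tested, summed to 461 and 499.8 CPM in E4.5-Ant, 462 to 536 in E4.5-Post, 1433 to 1832 in the E5.5 duct and 1705 to 1853 in the E6.5 duct. Of these, 3 were DEGs on the higher side in E5.5 duct and 2 in the E6.5 duct over E4.5-Post, and 0 on the lower side. Most of the sum in the ducts came from CALB1, which encodes a calcium-binding protein. CALB1 averaged 273.5, 238.9, 1301 and 1493 CPM in E4.5-Ant, E4.5-Post, E5.5 duct and E6.5 duct, while AQP2, a water channel, was near 0. The other markers moved less and not all upwards. In E4.5-Post, E5.5 duct and E6.5 duct, WNT9B averaged 92.4, 140.5 and 112.1 CPM, and RET 12.7, 33.8 and 19.1. GATA3 averaged 39.25, 45.9 and 46.8 CPM, EMX1 71.1, 56.8 and 55.6, and WNT11 33.5, 43.6 and 29.2. Red blood cell markers, of which 6 of 11 were measured, summed to 2278 and 2527 CPM in E4.5-Ant, 2200 to 2852 in E4.5-Post, 622 to 999.6 in the E5.5 duct and 903 to 1048 in the E6.5 duct, with 2 DEGs on the higher and 4 on the lower side in E5.5 duct and 2 and 2 in the E6.5 duct. Of all tested genes, 14.3% were DEGs on the higher and 6.26% on the lower side in E5.5 duct over E4.5-Post. In the E6.5 duct 16.5% and 8.78% were. The red blood cell sum mixes globins that moved in opposite directions. In E4.5-Post, E5.5 duct and E6.5 duct, HBZ averaged 1355, 326.1 and 59.7 CPM and HBE 386.1, 127.3 and 66.8. HBBA averaged 3.07, 26.3 and 265.7 CPM and HBE1 1.84, 4.40 and 40.6. HBA1 averaged 446.8, 208 and 362.6 CPM and HBM 257.6, 108.2 and 185.9. The part of Wolffian duct and red blood cells in the EGFLAM and LAMA4 values was not tested.

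LAMA1, the alpha chain of the first laminin of the early embryo, lies on chromosome 2 from 99519336 to 99618361 on the plus strand. Its level was 559, 625 and 529 CPM in the 3 E4.5-Post libraries, 429 and 447 in E4.5-Ant (left-out library 393), 451, 463 and 477 in the E5.5 duct and 429, 372 and 443 in the E6.5 duct. E4.5-Post was the highest tissue, its libraries above all others. The log2FC against it was -0.41 ± 0.083 in E4.5-Ant (edgeR FDR 0.00199), -0.31 ± 0.074 in the E5.5 duct (edgeR FDR 0.00292) and -0.46 ± 0.074 in the E6.5 duct (edgeR FDR 0.000105), all short of the fold limit. The remaining 3 tissues were not told apart, with edgeR FDR between 0.144 and 0.703.

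LAMA5, the alpha chain of most mature epithelial basement membranes, lies on chromosome 20 from 7831104 to 7910618 on the minus strand. Its level was 479.9, 572 and 485 CPM in the 3 E4.5-Post libraries, 418 and 436 in E4.5-Ant (left-out library 336), 376, 441 and 338 in the E5.5 duct and 375, 374 and 401 in the E6.5 duct. It too was highest in E4.5-Post, where all 3 libraries lay above those of every other tissue. The log2FC was -0.41 ± 0.095 in the E5.5 duct and -0.41 ± 0.095 in the E6.5 duct over E4.5-Post (edgeR FDR 0.00200 and 0.00175), and -0.29 ± 0.11 in E4.5-Ant, which missed the FDR limit at 0.0535. That difference passed the limit in 6 of 21 alternatives, among them DESeq2 (FDR 0.0296), all 12 libraries (edgeR FDR 0.0216) and the fit without E5.5 duct library 2 (edgeR FDR 0.0122). The E5.5 duct and E6.5 duct means were 385 ± 51.9 and 383 ± 15.05 CPM (log2FC -0.00033, edgeR FDR 0.998).

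LAMA2, the alpha chain of the basement membranes of muscle fibres and nerve sheaths, spans 349576 bases on chromosome 3, from 58190049 to 58539624 on the minus strand, with the microRNA gene MIR1660 inside it on the same strand. Its level was 61.2, 62.4 and 63.8 CPM in the 3 E4.5-Post libraries, 74.5 and 70.9 in E4.5-Ant (left-out library 77.6), 82.7, 83.5 and 72.3 in the E5.5 duct and 63.4, 51.8 and 65.9 in the E6.5 duct. Its mean was highest in E5.5 duct, with a log2FC of 0.35 ± 0.085 over E4.5-Post (edgeR FDR 0.00330), and E6.5 duct was below it, at -0.39 ± 0.085 (edgeR FDR 0.00422). E5.5 duct and E4.5-Ant were not told apart (edgeR FDR 0.239). Skeletal muscle markers were also lower in E6.5 duct than E5.5 duct. All 12 were measured, and their summed level was 67.9 to 107 CPM in E4.5-Post, 72.5 to 83.7 in E4.5-Ant, 81.2 to 124 in the E5.5 duct and 53.6 to 61.7 in the E6.5 duct. Of these 12, 9 were DEGs on the lower side and 0 on the higher side in the E6.5 duct against E5.5 duct. Over all tested genes, 3.45% were DEGs on the lower and 4.11% on the higher side in that comparison. The part of skeletal muscle cells in the LAMA2 difference was not tested.

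Within each library, the share of the 4 alpha chains can be followed without regard to the library's total. LAMA4 took 3.41% to 4.70% of the counts on the 4 chains in E4.5-Post, 5.64% and 6.19% in E4.5-Ant, 9.16% to 10.6% in E5.5 duct and 8.68% to 9.48% in the E6.5 duct. The left-out E4.5-Ant library had 6.40%. LAMA1 took 43.9% to 47.8% and LAMA5 37.3% to 42.9% as tissue means. These are shares of counts and not of molecules, since the chains differ in length. LAMA3, whose values are given further below, was counted neither in these shares nor in the sum that follows. The sum of the alpha chains relative to LAMC1 was 0.59 ± 0.037 on the log2 scale in E4.5-Post, 0.71 ± 0.018 in E4.5-Ant, 0.82 ± 0.042 in the E5.5 duct and 0.79 ± 0.071 in the E6.5 duct.

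**Figure D2:**
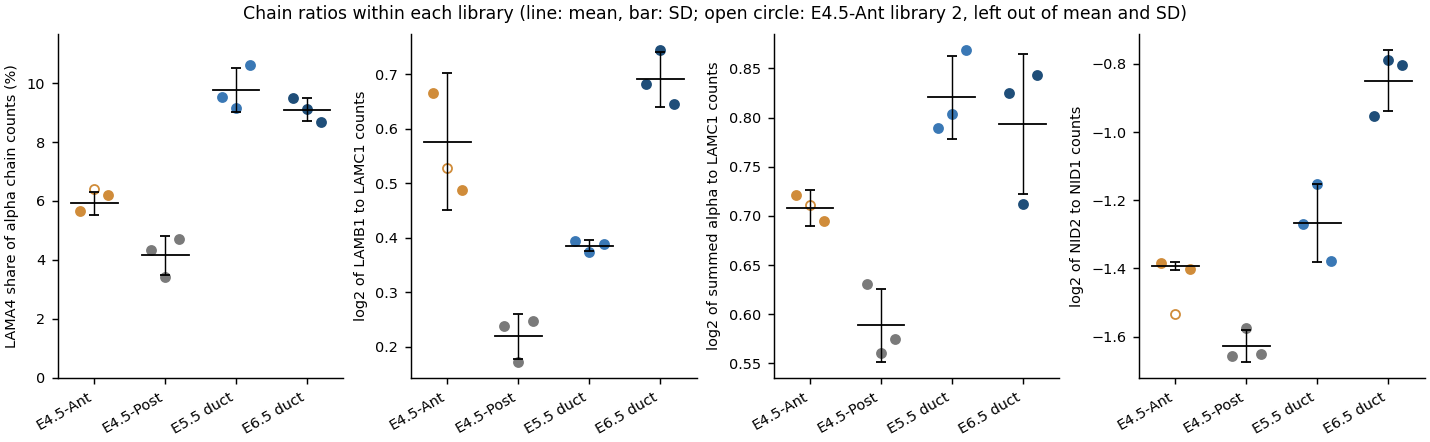
Ratios of counts within each library for the 4 tissues. From left to right the vertical axes give the share of alpha chain counts on LAMA4 in percent (from 0) and the log2 ratios of LAMB1 to LAMC1, summed alpha chains to LAMC1 and NID2 to NID1. Alpha chain counts are those of LAMA1, LAMA2, LAMA4 and LAMA5. Points are libraries, lines are means, bars are SD, and the open circle is E4.5-Ant library 2. The LAMA4 share separates ducts from E4.5 tissues, and the NID2 to NID1 ratio is highest in the E6.5 duct.

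LAMC1 is the gamma chain shared by the laminins of most tissues, and mice without it fail to assemble embryonic basement membranes. The gene lies on chromosome 8 from 7826040 to 7900446 on the plus strand, and it overlaps NPL on the same strand, so that reads from the shared stretch could not be given to either gene. Its level was 743, 884 and 759 CPM in the 3 E4.5-Post libraries, 593 and 628 in E4.5-Ant (left-out library 526), 582, 623 and 544 in the E5.5 duct and 541, 536 and 555 in the E6.5 duct. Every E4.5-Post library was above every other library. The log2FC was -0.41 ± 0.084 in E4.5-Ant (edgeR FDR 0.00224), -0.45 ± 0.075 in the E5.5 duct (edgeR FDR 0.000158) and -0.54 ± 0.075 in the E6.5 duct (edgeR FDR 2.43e-05). The E6.5 value, 1.46-fold, reached the fold limit in 1 of 21 alternative fits, without E4.5-Post library 1, where the log2FC was -0.59. E4.5-Ant and the ducts were not told apart (edgeR FDR between 0.220 and 0.755).

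LAMB1, the most common beta chain, lies on chromosome 1 from 15009166 to 15050971 on the minus strand, next to LAMB4, with the lncRNA LOC112533030 on the opposite strand, and counting kept the strands apart. Its level was 876, 996 and 901 CPM in the 3 E4.5-Post libraries, 940.5 and 881 in E4.5-Ant (left-out library 759), 764, 807 and 711 in the E5.5 duct and 868, 898 and 869 in the E6.5 duct. It was lowest in E5.5 duct, at -0.28 ± 0.070 on the log2 scale against E4.5-Post (edgeR FDR 0.00327), and E6.5 duct (-0.07 ± 0.070, edgeR FDR 0.416) and E4.5-Ant (-0.05 ± 0.078, edgeR FDR 0.667) did not pass. E5.5 duct was also below E4.5-Ant (-0.23 ± 0.077, edgeR FDR 0.0343) and below E6.5 duct, which was 0.22 ± 0.070 higher (edgeR FDR 0.0330). Both of these missed the FDR limit with only the 2 tissues in the fit or with all 12 libraries, and so did the latter in 5 of 11 fits with a library left out, those without E5.5 duct library 1 or 3 or any E6.5 duct library (FDR up to 0.124), the former in 3, without either E4.5-Ant library or E5.5 duct library 3 (FDR up to 0.274).

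The ratio of LAMB1 to LAMC1 was lowest in E4.5-Post and highest in E6.5 duct. On the log2 scale, LAMB1 to LAMC1 was 0.17 to 0.25 in E4.5-Post, 0.49 and 0.67 in E4.5-Ant, 0.37 to 0.39 in the E5.5 duct and 0.65 to 0.74 in the E6.5 duct, with 0.53 in the left-out E4.5-Ant library. The E4.5-Post, E5.5 duct and E6.5 duct libraries did not overlap in this ratio. With 3 libraries against 3, an exact permutation test could not go below 0.10, and none was run.

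The nidogens differed from each other. NID1, on chromosome 3 from 37941048 to 37974805 on the plus strand, was at 375, 388 and 356 CPM in the 3 E4.5-Post libraries, 474 and 432 in E4.5-Ant (left-out library 444), 324, 325 and 309 in the E5.5 duct and 313, 288 and 310.0 in the E6.5 duct. It was highest in E4.5-Ant and lowest in the ducts, with no overlap between E4.5-Ant, E4.5-Post and the ducts. Against E4.5-Ant, the log2FC of NID1 was -0.48 ± 0.067 in the E5.5 duct and -0.54 ± 0.067 in the E6.5 duct (edgeR FDR 8.40e-05 and 1.53e-05), and against E4.5-Post it was -0.23 ± 0.060 and -0.29 ± 0.060 (edgeR FDR 0.00525 and 0.000808). The E6.5 difference from E4.5-Ant, 1.46-fold, passed the fold limit without E4.5-Ant library 3, at -0.62. NID1 was higher in E4.5-Ant than E4.5-Post (0.25 ± 0.067, edgeR FDR 0.0114), by 0.17 to 0.33 in the fits with 1 library left out. With all 12 libraries this difference was 0.25 (edgeR FDR 0.00993). Without E4.5-Ant library 1 that tissue had 1 library, so that fit cannot decide whether the difference rests on it.

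NID2, on chromosome 5 from 58248071 to 58260038 on the minus strand, was at 119, 130.3 and 113 CPM in the 3 E4.5-Post libraries, 182 and 164 in E4.5-Ant (left-out library 153), 134, 146 and 119 in the E5.5 duct and 162, 167 and 177 in the E6.5 duct. Its highest tissues were E4.5-Ant and E6.5 duct, which were not told apart (log2FC -0.00070, SE 0.092, edgeR FDR 0.996). Against E4.5-Post the log2FC was 0.49 ± 0.092 in E4.5-Ant (edgeR FDR 0.00126), 0.14 ± 0.083 in the E5.5 duct (edgeR FDR 0.180) and 0.49 ± 0.083 in the E6.5 duct (edgeR FDR 0.000174). E6.5 duct was above E5.5 duct by 0.35 ± 0.083 (edgeR FDR 0.00699), and E5.5 duct was below E4.5-Ant, at -0.35 ± 0.092 (edgeR FDR 0.0104, and 0.152 without E4.5-Ant library 1).

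As NID1 went down and NID2 up between E4.5-Post and E6.5 duct, their ratio changed more than either gene. The log2 ratio of NID2 to NID1 counts was -1.66, -1.57 and -1.65 in the E4.5-Post libraries and -1.38 and -1.40 in those of E4.5-Ant. It was -1.27, -1.15 and -1.38 in E5.5 duct and -0.95, -0.79 and -0.80 in the E6.5 duct. The E6.5 duct libraries lay above all others and the E4.5-Post libraries below the other libraries used. The left-out E4.5-Ant library was at -1.54.

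HSPG2, perlecan, lies on chromosome 21 from 6538678 to 6569042 on the plus strand. Its level was 321, 366 and 307 CPM in the 3 E4.5-Post libraries, 457 and 418 in E4.5-Ant (left-out library 418), 360.1, 528 and 316 in the E5.5 duct and 425, 419 and 497 in the E6.5 duct. E5.5 duct library 2 was the highest of all libraries, and it made E5.5 duct the tissue with the widest spread, 401 ± 112 CPM. The same library had the highest share of rRNA among the 11 used, 1.95%, and the highest summed level of the 12 skeletal muscle markers, 124 CPM against 83.0 and 81.2 in the other E5.5 duct libraries, and the part of these in the HSPG2 value was not tested. HSPG2 was higher in the E6.5 duct than in E4.5-Post by 0.44 ± 0.15 (edgeR FDR 0.0233). This difference missed the limit with DESeq2 (FDR 0.073), with all 12 libraries (0.054) and in the fits without E4.5-Post library 1 or 3 or E6.5 duct library 3 (up to 0.092).

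The log2FC of HSPG2 over E4.5-Post was 0.37 ± 0.17 in E4.5-Ant (edgeR FDR 0.114) and 0.28 ± 0.15 in E5.5 duct (edgeR FDR 0.138), neither past the FDR limit. Without E5.5 duct library 2 more differences passed the FDR limit. The E5.5 duct difference from E4.5-Post became 0.009 ± 0.095 (edgeR FDR 0.946), E5.5 duct was lower than E4.5-Ant by 0.36 on the log2 scale (edgeR FDR 0.0189), E6.5 duct was higher than E5.5 duct by 0.43 (edgeR FDR 0.00699), E4.5-Ant was higher than E4.5-Post by 0.37 (edgeR FDR 0.00866), and E6.5 duct was higher than E4.5-Post by 0.44 (edgeR FDR 0.00057).

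**Figure D3:**
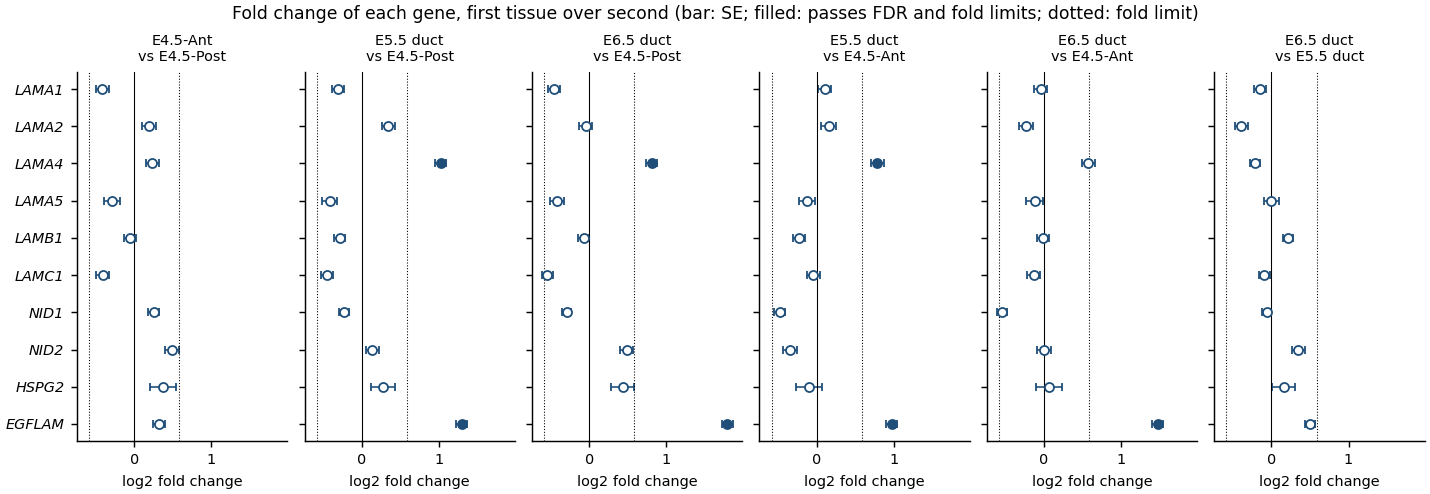
log2 fold change (horizontal axis) of the 10 genes in each of the 6 comparisons, first tissue over second. Points are edgeR estimates, bars are SE, filled points are DEGs, and dotted lines mark a 1.5-fold change. The filled points are EGFLAM in 4 comparisons and LAMA4 in 3, all on the higher side.

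Across the 10 genes, the ducts differed from E4.5-Post in both directions at the FDR limit alone. In E5.5 duct 3 genes were higher (EGFLAM, LAMA4 and LAMA2) and 5 lower (LAMA1, LAMA5, LAMB1, LAMC1 and NID1), against 27.3% and 26.5% of all tested genes. In E6.5 duct 4 were higher (EGFLAM, LAMA4, NID2 and HSPG2) and 4 lower (LAMA1, LAMA5, LAMC1 and NID1), against 29.7% and 28.2%. Nephron and podocyte markers were also lower in the ducts than in E4.5-Post: 6 of the 9 measured of 12 listed were DEGs on the lower side in each, with 0 and 1 on the higher side, and their summed level was 2981 to 3513 CPM in E4.5-Post, 2666 and 2970 in E4.5-Ant, 1815 to 2013 in the E5.5 duct and 1352 to 1738 in the E6.5 duct. None of the 9 was at 0. Of all tested genes, 6.26% were DEGs on the lower and 14.3% on the higher side in E5.5 duct over E4.5-Post. The shares in the E6.5 duct were 8.78% and 16.5%. The 10 measured epithelial markers of 11 listed summed to 871 to 885 CPM in E4.5-Post, 574 and 581 in E4.5-Ant, 785 to 898 in the E5.5 duct and 1007 to 1068 in the E6.5 duct, with CLDN4 alone at 0 in all. The part of kidney or epithelial cells in the lower laminin chains was not tested.

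Further genes of the basement membrane were taken from 7 lists, and those given with values per library were chosen by a fixed rule, the others after their values were seen. Each list's counts are read against all tested genes, of which 14.3% were DEGs on the higher and 6.26% on the lower side in E5.5 duct over E4.5-Post, 16.5% and 8.78% in the E6.5 duct, and 7.70% and 3.05% in E4.5-Ant. Of the 6 laminin chains outside the 10 genes, all tested, 1 was a DEG on the higher and 1 on the lower side in E5.5 duct over E4.5-Post, and 2 and 1 in the E6.5 duct. The list's median log2FC was 0.06 and 0.49, against 0.013 and 0.014 over all tested genes. LAMA3, the alpha chain of the laminin that anchors skin and other lining epithelia, was at 24.0 and 25.4 CPM in E4.5-Ant and 24.3, 20.6 and 24.5 in E4.5-Post. It rose to 61.6, 65.4 and 51.0 in E5.5 duct (log2FC against E4.5-Post 1.36 ± 0.11, edgeR FDR 1.75e-07) and was lower again at 36.6, 30.6 and 29.5 in the E6.5 duct (log2FC against E5.5 duct -0.87 ± 0.11, edgeR FDR 8.05e-05). LAMB3, the beta chain that pairs with it in that laminin, did not exceed 2.77 CPM as a tissue mean.

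LAMB2, the beta chain of nerve-muscle junctions and of the kidney filter, was higher in the ducts than in the E4.5 tissues and highest in the E6.5 duct. It was at 19.5 and 19.1 CPM in E4.5-Ant, 20.8, 22.0 and 17.9 in E4.5-Post, 28.1, 32.0 and 29.99 in the E5.5 duct and 43.9, 52.3 and 51.3 in the E6.5 duct. No E6.5 duct library overlapped any other tissue. The log2FC of E6.5 duct was 1.28 ± 0.092 against E4.5-Post (edgeR FDR 3.45e-08) and 0.72 ± 0.089 against E5.5 duct (edgeR FDR 9.54e-05), and that of E5.5 duct over E4.5-Post, 0.56, fell just short of the fold limit. LAMC3 was lower in both ducts, at 23.8 and 24.2 CPM against 38.0 in E4.5-Post, and was no DEG without E5.5 duct library 3 in the first and without E6.5 duct library 1 in the second. The count on the higher side in E5.5 duct became 2 without E4.5-Post library 2 or E5.5 duct library 1, and that of E6.5 duct became 1 without E4.5-Post library 1 or E6.5 duct library 3 and by DESeq2.

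The collagens of the basement membrane are the partners that nidogens tie to laminin. Of 8 listed, all tested, 1 was a DEG on the higher side and 4 on the lower side in each duct over E4.5-Post. The type IV chains COL4A1 and COL4A2, which form the general network, were at 385 and 259 CPM in E5.5 duct and 373 and 273 in the E6.5 duct, against 627 and 443 in E4.5-Post. The type IV chains COL4A5 and COL4A6 were not lower, and neither was a DEG in the ducts over E4.5-Post. They were at 404.6 and 317 CPM in E5.5 duct and 388 and 316.7 in the E6.5 duct, against 358.6 and 265 in E4.5-Post. COL4A3, a chain of the glomerular network, was at 33.6 and 30.9 CPM in E4.5-Ant, 21.0, 20.4 and 17.1 in E4.5-Post, 6.97, 5.66 and 6.64 in the E5.5 duct and 3.56, 3.13 and 4.22 in the E6.5 duct. Relative to E4.5-Post its log2FC was -1.61 ± 0.12 in the E5.5 duct and -2.42 ± 0.13 in the E6.5 duct (edgeR FDR 8.06e-08 and 1.66e-09), and its partner COL4A4 was at 6.7 and 3.9 CPM in the ducts against 19.8 in E4.5-Post. Nephron and podocyte markers were lower in the ducts too, and their part in these values was not tested.

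COL15A1, the collagen that bridges basement membrane and the fibrils next to it, was the listed collagen that was a DEG on the higher side in both ducts. It was at 14.97 and 18.3 CPM in E4.5-Ant, 2.22, 4.003 and 2.41 in E4.5-Post, 14.3, 13.8 and 17.97 in the E5.5 duct and 30.2, 29.3 and 29.5 in the E6.5 duct. All E4.5-Post libraries were below all others and all E6.5 duct libraries above them. The log2FC against E4.5-Post was 2.50 ± 0.18, 2.40 ± 0.17 and 3.36 ± 0.17 in E4.5-Ant, E5.5 duct and E6.5 duct (edgeR FDR 2.45e-07, 6.43e-08 and 1.05e-09).

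Other basement membrane components made up the list with the most DEGs on the higher side. Of the 20 tested of 21 listed, 13 were higher and 0 lower in each duct over E4.5-Post, and E4.5-Ant had 8 on the higher and 2 on the lower side. The list's median log2FC was 0.85 in the E5.5 duct and 0.80 in the E6.5 duct. The list was put together with earlier results of these data known, so its count is a description. Without E5.5 duct library 2 there was 1 on the lower side in E5.5 duct, and the 2 on the lower side in E4.5-Ant became 1 when E4.5-Ant library 1 was left out and 4 when library 3 was. SMOC1, a calcium-binding matrix protein, was at 12.8 and 18.9 CPM in E4.5-Ant, 20.2, 18.4 and 22.6 in E4.5-Post, 76.7, 85.7 and 92.7 in the E5.5 duct and 77.1, 59.4 and 64.0 in the E6.5 duct, a rise of 2.05 ± 0.13 in the E5.5 duct and 1.72 ± 0.13 in the E6.5 duct over E4.5-Post (edgeR FDR 1.64e-08 and 4.83e-08). TINAG, known as an antigen of the tubular basement membrane in the kidney, was low in all tissues, at 0.634 ± 0.157 CPM in E4.5-Post against 12.99 ± 4.82 in the E6.5 duct, a difference of 4.35 ± 0.32 on the log2 scale (edgeR FDR 4.34e-08). Others among the 13 in both ducts were FBLN1, NPNT, SPARC, NTN4, SMOC2 and HMCN1. Not all genes of the list were higher in the ducts. FRAS1 averaged 376.2 CPM in E4.5-Post, 274.6 in the E5.5 duct and 271.6 in the E6.5 duct. AGRN averaged 401.8, 394.8 and 490 CPM in the same order.

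**Figure D4:**
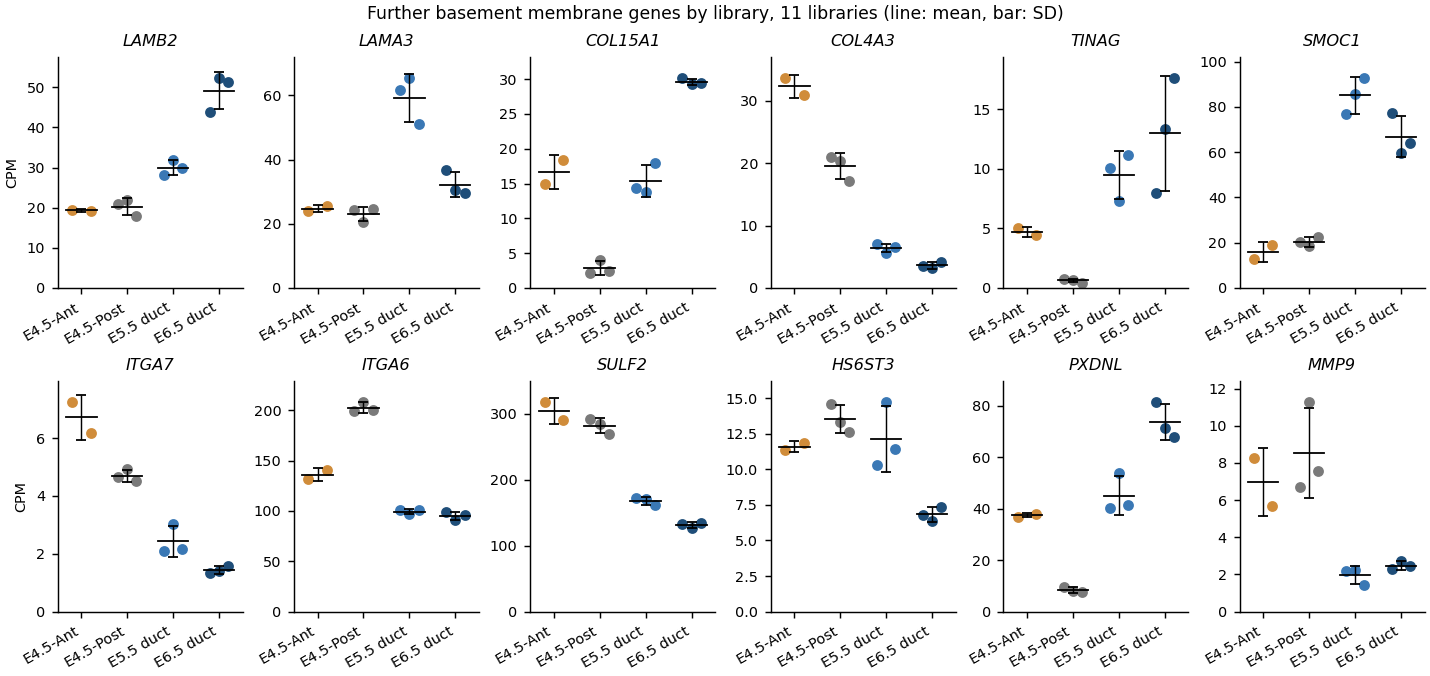
Level in CPM (vertical axis, from 0, with its own scale for each gene) of the 12 genes named by rule from 6 further lists, in the 11 libraries used. Points are libraries, lines are means and bars are SD. LAMB2, COL15A1 and PXDNL are highest in the E6.5 duct, LAMA3 and SMOC1 in E5.5 duct, and ITGA6 and MMP9 in E4.5-Post.

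The laminin receptors had no DEG on the higher side in the ducts against E4.5-Post. Of 15 tested of 16 listed, 5 were lower in the E5.5 duct and 3 in the E6.5 duct, where 6.26% and 8.78% of all tested genes were, with a median log2FC of -0.26 and -0.24. Nephron and podocyte markers were lower in the ducts as well, and their part in these values was not tested. ITGA6, the integrin chain that binds laminins in epithelia, was at 131 and 141 CPM in E4.5-Ant, 199, 208 and 200.4 in E4.5-Post, 100.5, 96.7 and 100.5 in the E5.5 duct and 98.8, 91.1 and 95.5 in the E6.5 duct. Its log2FC was -1.03 ± 0.047 in the E5.5 duct and -1.09 ± 0.047 in the E6.5 duct (edgeR FDR 1.48e-09 and 2.90e-10), and its E4.5-Ant value of -0.61 ± 0.053 (edgeR FDR 1.22e-06) was also a DEG, but not without E4.5-Ant library 1 or E4.5-Post library 2, nor with scaling by library size alone or with 2 tissues per fit. ITGA7, a laminin receptor of muscle, was low and fell from 6.71 CPM in E4.5-Ant and 4.69 in E4.5-Post to 2.43 and 1.44 in the ducts.

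Dystroglycan, DAG1, the receptor for laminins, perlecan and pikachurin alike, was at 305 CPM in E4.5-Post, 225 in E4.5-Ant, 183 in the E5.5 duct and 259 in the E6.5 duct. It was a DEG on the lower side in E5.5 duct over E4.5-Post (log2FC -0.74) and in no other comparison. Of the enzymes that build the sugar chain by which dystroglycan holds these ligands, 15 were tested and 0 were DEGs in any comparison by edgeR, by voom with limma or by DESeq2. Of all tested genes, 14.3% were DEGs on the higher and 6.26% on the lower side in E5.5 duct over E4.5-Post by edgeR. The shares were 16.5% and 8.78% in the E6.5 duct. At an unadjusted edgeR p under 0.05 there were 7 of 15 in E5.5 duct over E4.5-Post and 6 of 15 in the E6.5 duct, and 4 or 5 in each other comparison. At the FDR limit alone there were 6 of 15 in each duct over E4.5-Post. Of all tested genes, 27.3% were higher and 26.5% lower at that limit in E5.5 duct, and 29.7% and 28.2% in the E6.5 duct. Leaving out single libraries or taking in the library left out brought the count of DEGs to 1 in 3 of the comparisons: E5.5 duct over E4.5-Post with all 12 libraries or without E4.5-Post library 3 or E5.5 duct library 1 or 3, E6.5 duct against E5.5 duct without E5.5 duct library 1 or 3 or E6.5 duct library 1, and E6.5 duct against E4.5-Ant with all 12 libraries.

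The enzymes of heparan sulfate, the sugar chain of perlecan, gave 3 DEGs on the higher and 2 on the lower side in E5.5 duct over E4.5-Post, of 23 tested, and 2 and 5 in the E6.5 duct, where 14.3% and 6.26%, then 16.5% and 8.78%, of all tested genes were. SULF2, a sulfatase that trims heparan sulfate outside the cell, fell from 292, 285 and 269 CPM in E4.5-Post to 173, 170 and 161 in the E5.5 duct and 133, 126 and 135 in the E6.5 duct (log2FC -0.75 ± 0.058 and -1.10 ± 0.059, edgeR FDR 1.42e-07 and 1.99e-09). HS6ST3, which adds sulfate, had 13.5 ± 1.01 CPM in E4.5-Post, was at 12.2 ± 2.33 for E5.5 duct and fell to 6.84 ± 0.501 in the E6.5 duct (log2FC against E5.5 duct -0.82 ± 0.14, edgeR FDR 0.000650). NDST3, a sulfotransferase, was higher in both ducts, at 74.0 and 74.7 CPM against 40.8 in E4.5-Post. The 2 on the lower side in E5.5 duct became 1 without E5.5 duct library 2, and the 5 in the E6.5 duct became 3 with all 12 libraries.

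Genes of assembly and turnover gave 6 DEGs on the higher side and 0 on the lower side in E4.5-Ant against E4.5-Post, of 20 tested of 23 listed, then 5 and 1 in E5.5 duct and 6 and 1 in the E6.5 duct. Over all tested genes the shares were 7.70% and 3.05%, 14.3% and 6.26%, and 16.5% and 8.78%. The 1 on the lower side in E5.5 duct became 2 without E4.5-Ant library 1 or 3, E4.5-Post library 1 or 3 or E5.5 duct library 1. PXDNL, a relative of the peroxidase that crosslinks type IV collagen, was at 36.8 and 37.9 CPM in E4.5-Ant, 9.53, 7.87 and 7.47 in E4.5-Post, 40.2, 53.7 and 41.4 in the E5.5 duct and 81.6, 71.3 and 67.9 in the E6.5 duct. Relative to E4.5-Post its log2FC was 2.14 ± 0.14, 2.44 ± 0.13 and 3.16 ± 0.13 in E4.5-Ant, E5.5 duct and E6.5 duct (edgeR FDR 7.43e-08, 4.99e-09 and 1.70e-10). The peroxidase itself, PXDN, was at 177 CPM in E4.5-Post, 288 in E4.5-Ant, 272 in E5.5 duct and 249 in the E6.5 duct. MMP9, a gelatinase, fell from 8.53 ± 2.44 CPM in E4.5-Post to 1.958 ± 0.477 in the E5.5 duct and 2.47 ± 0.226 in the E6.5 duct (log2FC -2.12 ± 0.23 and -1.78 ± 0.23, edgeR FDR 3.81e-06 and 1.19e-05). MMP2 was at 173 CPM in E4.5-Post, 312 in E4.5-Ant, 317 in the E5.5 duct and 267 in the E6.5 duct.

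**Figure D5:**
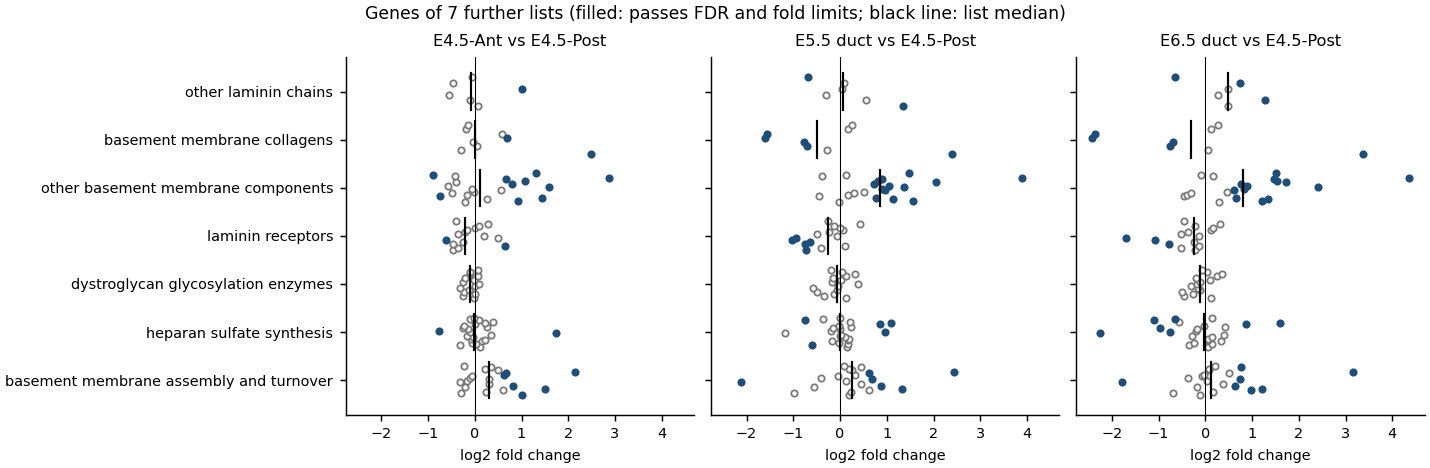
log2 fold change (horizontal axis) against E4.5-Post of each tested gene of the 7 further lists (rows) in E4.5-Ant, E5.5 duct and E6.5 duct. Filled points are DEGs and black lines are list medians. In both ducts the list of other basement membrane components has 13 DEGs on the higher side, the collagens 4 on the lower side, and the dystroglycan enzymes none.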

How the data were processed

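Stranded poly(A) RNA libraries from 12 pools of chicken tissue were read on an Illumina NextSeq, aligned by the authors with STAR to GRCg6a and counted with featureCounts 1.6.2. The deposited values are raw counts per gene, taken over whole genes (introns included) by strand, and duplicates were not left out. Libraries were grouped by the tissue in their column names. The 24121 genes were filtered with filterByExpr, scaled by TMM and tested with edgeR 4.0.16 (quasi-likelihood, all 4 tissues in 1 model, R 4.3.3), and p-values were adjusted by Benjamini-Hochberg over the 16603 genes tested. A DEG had an FDR of at most 0.05 and a 1.5-fold change. The test was checked on simulated data. P-values measure the spread between pools.

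Alternatives were voom with limma 3.58.1, DESeq2 1.42.0, other scaling and filters, fits of 2 tissues, all 12 libraries, each library left out and a block on library number. The study states that 1 E4.5-Ant library was omitted without naming it, and library 2 was left out here for its rRNA share. The members and lists were chosen with earlier results of these data known. From each further list, the 2 genes with the largest change were given in full among DEGs without overlap of libraries and with at least 5 CPM in the higher tissue, and the 5 genes most like EGFLAM by Pearson r of log2(CPM + 1). Chromosome names were matched by symbol to RefSeq genes of GRCg7b, coordinates are those of the file, and no sequences were used here. Some genes of the lists are not reported here by name.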

Additional observations from a re-analysis of the deposited data

How the results depend on the processing

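Of 60 log2 fold changes of the 10 genes under 21 alternatives, 1255 of 1260 values kept their side of the DEG limits, 5 passed them anew, and no DEG was lost or changed direction. The sign changed in 24 values of 9 differences, all with an edgeR FDR above 0.05 in the fit reported. The number of the 10 genes that were DEGs in E6.5 duct against E4.5-Ant was 1, and 2 (EGFLAM and LAMA4) with the library number as a replicate block, under which the log2FC of LAMA4 was 0.61. With the block, LAMA4 in E4.5-Ant against E4.5-Post was at 0.20 (edgeR FDR 0.0697). Leaving out 1 library gave 1 to 3, with 3 (EGFLAM, LAMA4 and NID1) without E4.5-Ant library 3 and 2 without E6.5 duct library 2. In E6.5 duct over E4.5-Post the 2 became 3, with LAMC1 on the lower side, without E4.5-Post library 1. No other count of DEGs among the 10 genes moved, with the block too. The library numbers are not stated to pair samples, and the deviations of same-numbered libraries correlated at -0.21 to 0.13. Scaling moved the median of all genes by at most 0.040 on the log2 scale. With n = 2, E4.5-Ant is the least certain tissue, and where 1 of its libraries was left out the other was assumed to vary like the other tissues. Scaling of the chain shares by length was not run.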
